A study of Homo sapiens with 6 samples.

Results

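The RAS-like GTPase genes described here were 10 of the 19775 genes with a probe set of their own on the array: RASD1, RASD2, RERG, RRAD, GEM, REM1, DIRAS3, RASL11A, RASL11B and RASL12. All 14 probe sets annotated to 1 of these genes alone were taken, of 54613 tested. The group was chosen by the rise of RASD1 between MPA and control arrays in earlier results of the same arrays, and the other genes were added by family. The differences of the members are therefore a description. Where a call is named for a member, it only places that probe set in the fit across all probe sets of the same arrays, and it is no independent evidence. Total RNA came from IKPRAB36 cells, 1 line of Ishikawa endometrial cancer cells stably transfected with the progesterone receptor isoforms PRA and PRB and kept under hygromycin and neomycin selection. The cells were grown in medium with charcoal stripped serum for 48 h, either untreated (control 1 to 3) or with 1 nM medroxyprogesterone acetate, a synthetic progestin (MPA 1 to 3). All 6 arrays carry the transfected receptors, and no line without them was analysed here. The sources do not say that the 3 arrays of a group came from separate cultures, so the spread between them may be technical. In RNA of whole cultures, fewer cells of a kind and less RNA per cell cannot be told apart.

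Small GTPases of the RAS superfamily switch between a GTP-bound and a GDP-bound state. Exchange factors load them with GTP, GTPase-activating proteins speed its hydrolysis, and for many members a prenyl group anchors the protein to membranes. The atypical members differ from classical RAS in their nucleotide cycle, their C-terminal anchor or both. RASD1, also called Dexras1 or AGS1, was found as a gene induced by the glucocorticoid dexamethasone, and its paralog RASD2 (Rhes) is best known from the striatum. RRAD, GEM and REM1 belong to the RGK group, which binds the beta subunits of voltage-gated calcium channels. RERG was described as an estrogen-regulated growth inhibitor, and DIRAS3 (ARHI) is an imprinted gene with growth-suppressing activity.

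RASD1 and RASD2 are shown as a pair, because they are paralogs and only RASD1 was called. The stretches run from 250 bases before to 50 bases after the start of the gene and come from the RefSeq promoter table for GRCh38.p14, of which windows for 6 of the 10 members were used. RASD1 lies at chr17:17496346-17496645 on the minus strand and RASD2 at chr22:35532556-35532855 on the plus strand. Capitals mark matches on either strand to any motif that was searched. For steroid receptors such as the progesterone receptor these were the half-site AGAACA and the spaced core ACANNNTGT of the full site. For cyclic AMP signaling they were the half-site TGACG, which is also contained in the full element TGACGTCA. The GC box was searched as GGGCGG. The TATA box of core promoters was searched as TATAAA. An estrogen response element, an inverted repeat with a spacer, was searched too. Positions count from the first base of the gene and give the left end of a match.
RASD1: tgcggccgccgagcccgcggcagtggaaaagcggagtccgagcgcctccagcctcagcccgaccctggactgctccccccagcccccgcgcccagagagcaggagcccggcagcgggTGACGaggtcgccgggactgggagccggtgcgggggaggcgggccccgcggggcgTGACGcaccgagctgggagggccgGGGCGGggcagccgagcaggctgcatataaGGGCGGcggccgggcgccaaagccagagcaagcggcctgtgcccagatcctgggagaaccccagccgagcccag
RASD2: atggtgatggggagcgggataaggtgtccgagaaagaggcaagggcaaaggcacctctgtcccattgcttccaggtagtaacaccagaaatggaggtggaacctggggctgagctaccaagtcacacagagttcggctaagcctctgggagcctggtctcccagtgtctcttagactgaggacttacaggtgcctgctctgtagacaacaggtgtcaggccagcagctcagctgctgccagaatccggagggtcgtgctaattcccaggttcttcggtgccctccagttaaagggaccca
The RASD1 window held TGACG at -133 and -78 from the start and GGGCGG at -54 and -24, and the RASD2 window held none of the motifs. TGACG was present in 24.6% of the 35116 windows in the table and GGGCGG in 45.0%. Among the 6 members with a window, TGACG was found in RASD1 and RASL12 and GGGCGG in RASD1, RASL11A, RASL11B and RASL12. TATAAA was found in DIRAS3 and RASL12 (11.5% of all windows). Only exact letters were counted, so the stretch tataag that runs into GGGCGG at -24 in the RASD1 window was not a match. No member window held AGAACA (14.8% of all windows), ACANNNTGT (5.37%), TGACGTCA (1.85%) or the estrogen response element (0.057%). The GC content was 76.3% for RASD1, above that of 92.6% of all windows, and 56.3% for RASD2, where the median window had 58.7%. A match of letters is a description of the window and no evidence of binding. A missing match says nothing about sequence outside the window.

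The arrays were compared with limma over all 54613 probe sets. A probe set was called at an adjusted p (Benjamini-Hochberg) under 0.05 with a log2 fold change of at least 0.32 in size, the fold minimum of the study's methods. Of the 14 member probe sets 2 were called, both higher with MPA: the RASD1 probe set and 1 of the 2 RERG probe sets. None was called lower, by limma or by SAM, the test of the study's methods, although RASL12 had an unadjusted p under 0.05. Over all probe sets 2.03% were called, and nothing is read from the members' count, since the contrast was known when they were chosen. The groups did not overlap in 6 of the 14 probe sets, 5 with MPA above and 1 with MPA below control, where 15.4% of all probe sets did not overlap. The median log2 fold change of the member probe sets was 0.05, and that of all probe sets was 0.01. Signals of different probe sets are not comparable as levels, so each is set against its own values and against the array medians (5.16 to 5.28 on the log2 scale). By that measure 7 of the 14 lay under the median on every array and 6 above it on every array. No detection calls were used, so whether a gene under the median was expressed at all is not known.

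**Figure D1:**
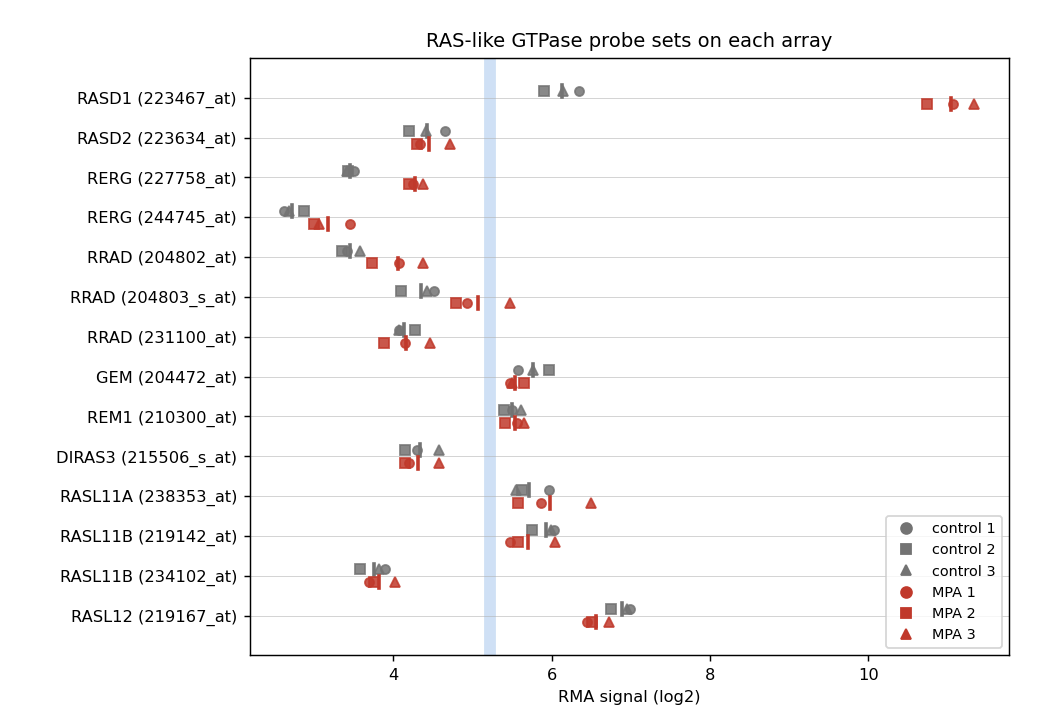
RMA signal on the log2 scale (x axis) of the 14 member probe sets on each of 3 control arrays (grey) and 3 MPA arrays (red), with short bars for the mean of each group and a blue band for the range of the array medians. RASD1 moves from at most 6.35 to at least 10.74, while the values of the other members reach 6.99 at most.

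RASD1 acts in signaling of inhibitory G proteins and in nitric oxide signaling. Its log2 signal was 6.35, 5.90 and 6.14 on control 1, 2 and 3 and 11.06, 10.74 and 11.34 on MPA 1, 2 and 3. Every MPA array lay at least 4.39 above every control array. The means were 6.13 ± 0.23 and 11.05 ± 0.30 (SD, n = 3 arrays each), a log2 fold change of 4.92 with a standard error of 0.18, or 30.2-fold. This was the fourth largest increase of all genes, and the gene was already above the array medians without MPA. In control cells the signal exceeded that of 60.4 to 66.0% of the probe sets, and with MPA that of 97.3 to 98.2%. Whichever array was left out, the log2 fold change stayed between 4.77 and 5.07.
The paralog RASD2 showed no such shift. Its signal lay between 4.20 and 4.65 on control arrays and between 4.30 and 4.71 on MPA arrays, under the array medians throughout. The groups overlapped, and the log2 fold change was 0.02 (95% interval -0.34 to 0.39).

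RERG was the other member called higher by limma, from a signal deep in the lower part of the arrays. RERG lacks the prenylation signal of classical RAS proteins. Its probe set 227758_at read 3.51, 3.43 and 3.42 on the control arrays and 4.25, 4.20 and 4.37 on the MPA arrays. The groups were 0.69 apart at their closest, and the spread within each was the smallest of all members. The means of 3.45 ± 0.05 and 4.28 ± 0.09 (SD, n = 3) gave a log2 fold change of 0.82 (standard error 0.10), a 1.77-fold difference. All 6 values were nonetheless under the array medians, above only 19.7 to 21.5% of the probe sets in control cells and 34.9 to 35.5% with MPA.
The second RERG probe set, 244745_at, was dimmer still and was not called. It read 2.62, 2.87 and 2.68 on control arrays and 3.45, 3.00 and 3.06 on MPA arrays. The MPA values lay above the control values, by 0.12 at the closest. Its log2 fold change was 0.45 (95% interval 0.11 to 0.78).

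The relatives of RERG named RASL11A, RASL11B and RASL12, which lack a prenylation signal too, were not called. RASL12 was the only member with all MPA arrays below all control arrays. Its signal was 6.99, 6.75 and 6.95 on control arrays and 6.45, 6.51 and 6.73 on MPA arrays. The gap between control 2 and MPA 3 was only 0.02, and the log2 fold change was -0.33 (95% interval -0.61 to -0.06).
The brighter RASL11B probe set read 5.76 to 6.03 in control and 5.48 to 6.04 in MPA cells, with a log2 fold change of -0.23. MPA 3, at 6.04, lay above every control array, and without it the value was -0.40. The dimmer one, 234102_at, was under the array medians on all arrays and had a log2 fold change of 0.06. RASL11A read 5.96, 5.62 and 5.55 on control arrays and 5.87, 5.58 and 6.50 on MPA arrays. MPA 3 alone stood above the control arrays here, and without it the log2 fold change of 0.27 became 0.01.

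The RGK genes, inhibitors of voltage-gated calcium channels, had their largest log2 fold changes in RRAD, whose 3 probe sets disagreed. RRAD 204803_s_at read 4.51, 4.10 and 4.43 on control arrays and 4.93, 4.80 and 5.48 on MPA arrays. RRAD 204802_at read 3.42, 3.36 and 3.58 on control arrays and 4.07, 3.73 and 4.38 on MPA arrays. In both, every MPA array lay above every control array, and MPA 3 was the highest. Their log2 fold changes were 0.72 (95% interval 0.28 to 1.16) and 0.61 (95% interval 0.23 to 0.99). Neither was called by limma, while SAM called both higher. Without MPA 3 the values were 0.52 and 0.45.
The third RRAD probe set, 231100_at, did not show the difference. It read 4.07, 4.27 and 4.08 on control arrays and 4.15, 3.88 and 4.46 on MPA arrays, with a log2 fold change of 0.02 (95% interval -0.33 to 0.38). Of all RRAD values only that of 204803_s_at on MPA 3 was above the median of its array. GEM, which also acts on the cytoskeleton, read 5.58 to 5.97 in control and 5.47 to 5.66 in MPA cells (log2 fold change -0.23). REM1 read 5.40 to 5.61 and 5.41 to 5.65, a log2 fold change of 0.04 (95% interval -0.22 to 0.29). The groups of both genes overlapped.

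DIRAS3 was under the array medians on all arrays and had nearly equal groups, but its relative DIRAS2 fell. DIRAS3 read 4.30, 4.15 and 4.58 on control 1, 2 and 3 and 4.20, 4.15 and 4.58 on MPA 1, 2 and 3, a log2 fold change of -0.03 (95% interval -0.39 to 0.33). DIRAS2 is no member and is taken from a list of 8 further relatives. Its fall was known from the study's gene table when that list was written. Its brightest probe set read 9.28, 9.56 and 9.58 on control arrays and 7.97, 8.24 and 7.96 on MPA arrays. All MPA values were below all control values, with means of 9.47 ± 0.17 and 8.06 ± 0.16 (SD, n = 3) and it fell by 1.41 on the log2 scale (adjusted p = 0.000976 from limma). The second DIRAS2 probe set fell by 1.22 (adjusted p = 0.00577), and the first was called without any 1 of the 6 arrays, at adjusted p from 0.00240 to 0.0110. The other 7 relatives were not called, with log2 fold changes from -0.10 for REM2 to 0.31 for NKIRAS1. DIRAS1, the third gene of the DIRAS group, had a log2 fold change of -0.03.

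**Figure D2:**
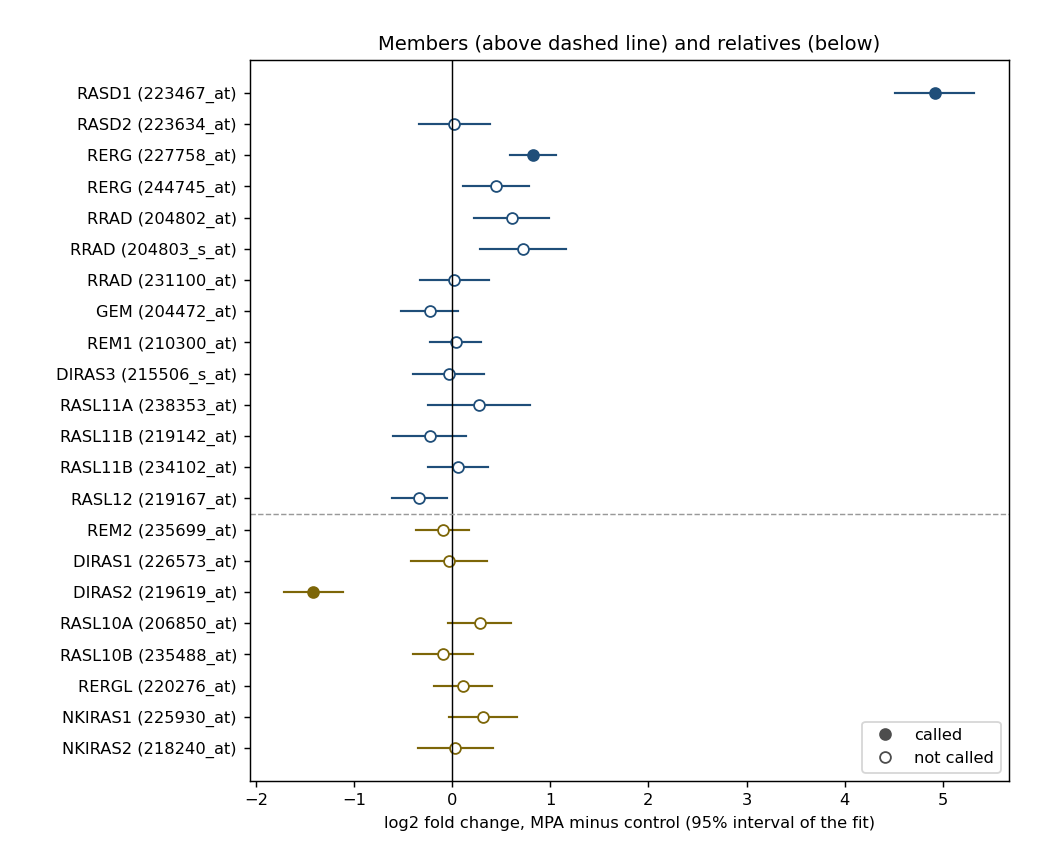
log2 fold change of MPA against control (x axis, 3 arrays each) with its 95% interval from the limma fit, for the 14 member probe sets (blue) and the brightest probe set of 8 relatives (brown). Filled points were called. RASD1 stands at 4.92, RERG at 0.82 and DIRAS2 at -1.41, and the others lie between -0.33 and 0.72.

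Part of the members' differences moved with single arrays. MPA 3 had the highest value of the MPA arrays in 12 of the 14 member probe sets, against 53.5% of all probe sets. MPA 2 had the lowest in 10 of 14 (44.3% of all) and control 2 the lowest of the control arrays in 9 of 14 (44.1% of all). MPA 3 also had the lowest 18S ribosomal RNA control signal, 7.06 against 8.09 to 9.44 on the others, and the lowest poly-A control signal, 6.19 against 7.50 to 8.23. The part of these array differences in the members' values was not tested. Without MPA 3, RASD1 and RERG 227758_at had log2 fold changes of 4.77 and 0.78. For the labelled cell type, the 6 epithelial markers had mean signals of 7.92 to 14.04, and leukocyte and endothelial markers 3.10 to 6.21. All 6 epithelial markers were above the array medians on every array, and so were CD3E and PECAM1. PTPRC, CD14, VWF and CDH5 were under them on every array. Of the 3 fibroblast markers, means reached from 4.12 to 10.22, with the collagen gene COL3A1 highest. None of these markers was called. The groups did not overlap in 4 of the 6 epithelial markers and in 2 of the 9 others, where 3350 of all 19775 genes did not overlap. All MPA arrays lay below all control arrays for EPCAM (log2 fold change -0.54), CDH1 (-0.76), PAX8 (-0.44), COL1A1 (-0.81) and COL3A1 (-0.53), and above them for KRT8 (0.22). The bright PGR probe set had means of 10.22 in control and 10.70 in MPA cells, with every MPA array above every control array (log2 fold change 0.48), and a second, dim one lay at 3.68 and 3.67. The part of these shifts in the members' values was not tested.

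To see whether the wider machinery of RAS-like GTPases moved with RASD1, 8 lists of 106 genes were read from the same fit, of which 92 genes were measured by a probe set of their own. Of these 92 genes, 3 fell and none rose, where 2.90% of all genes were called. The fall of DIRAS2 was known when its list was written, so nothing is read from this count. The 3 were DIRAS2 and 2 GTPase-activating proteins for the small GTPase RAP, and the median log2 fold change of the 92 genes was 0.05, against 0.02 for all genes. The other 14 genes were not analysed here.
Of 12 GTPase-activating proteins 2 fell, and the median of the list was -0.12. SIPA1L2 fell by 0.74 on the log2 scale, from 7.94 to 8.01 on control arrays to 7.15 to 7.30 on MPA arrays (adjusted p = 0.00645 from limma). It was called in 2 of its 3 probe sets, and the third had a log2 fold change of -0.41. RAP1GAP fell by 0.81, from 7.56, 7.18 and 7.33 to 6.40, 6.40 and 6.84 (adjusted p = 0.0403 from limma), while its other, dimmer probe set was at 0.18. The RAP1GAP call did not hold when control 1, control 3, MPA 1 or MPA 2 was removed (adjusted p of 0.133 to 0.198), nor in the mean of its probe sets, where the log2 fold change was -0.32 (adjusted p = 0.351). That of SIPA1L2 did not hold when control 3 was removed (adjusted p = 0.0561), and DIRAS2 was then the only call among the 92.
Among 15 classical RAS, RAP, RAL, RHEB and RIT GTPases none was called by limma, and 2 had an unadjusted p under 0.05. SAM called RRAS higher, at a log2 fold change of 0.59. HRAS, a proto-oncogene, was at 0.25 (adjusted p = 0.741). Of 15 exchange factors none was called and 1 had an unadjusted p under 0.05. This was SOS2, at 1.13 in its brightest probe set (adjusted p = 0.0574) and at 0.65 in the mean of its probe sets (adjusted p = 0.0729). SAM called the brightest higher, and so did limma after removal of control 2 or of dim probe sets, with the replicate number as a block, or with an intensity trend. None of 13 RAS effectors was called by limma or SAM, with 1 at an unadjusted p under 0.05 and log2 fold changes from -0.12 to 0.48.
None of the 13 partners of RASD1 and RASD2 was called by limma or SAM, and 2 had an unadjusted p under 0.05. NOS1AP, the adaptor that couples RASD1 to neuronal nitric oxide synthase, read 6.69, 6.42 and 6.82 on control arrays and 5.90, 6.03 and 6.44 on MPA arrays. MPA 3 lay just above control 2, so the groups overlapped, and the log2 fold change was -0.52 (adjusted p = 0.256). In a second NOS1AP probe set, all MPA arrays lay below all control arrays, by 0.31 at the closest. Its log2 fold change was -0.81 (adjusted p = 0.0674 from limma), and it was not called. The inhibitory G protein subunits GNAI1, GNAI2 and GNAI3 were at -0.19, 0.06 and 0.36.
Of 9 RGK partners none was called by limma or SAM, with 1 at an unadjusted p under 0.05. The calcium channel beta subunits CACNB1, CACNB2 and CACNB3 had log2 fold changes of 0.21, -0.06 and -0.07, and those of all their probe sets lay between -0.14 and 0.21. CACNB2 was under the array medians. The 7 genes listed for prenyl processing lay between -0.03 and 0.28, with none called by limma or SAM and none at an unadjusted p under 0.05.

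**Figure D3:**
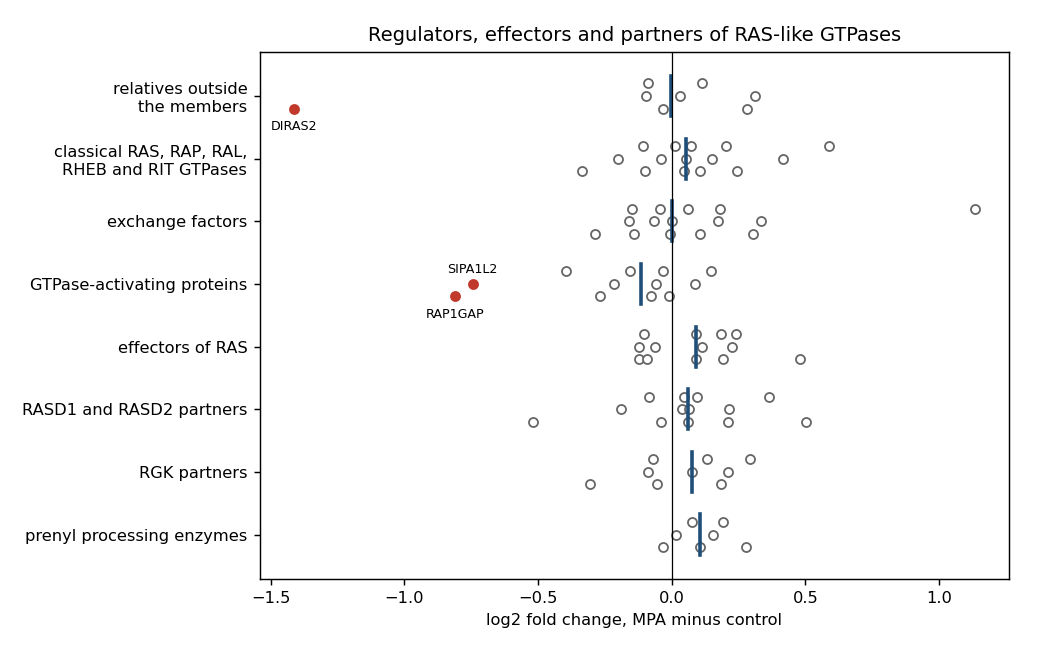
log2 fold change of MPA against control (x axis) for the 92 measured genes of 8 lists, 1 point a gene in its brightest probe set, with a blue mark at the median of each list. Filled red points were called: DIRAS2 at -1.41, RAP1GAP at -0.81 and SIPA1L2 at -0.74. The open point at 1.13 is SOS2.

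The genes with the pattern most like RASD1 were sought by Euclidean distance over the 6 arrays, after each gene's control mean was subtracted. The nearest was CST2, a secreted protease inhibitor, at a distance of 0.82 in log2 units, followed by PDK4 (1.30), SPINK13 (1.33), COL4A3 (1.52) and TIPARP (1.55). CST2 was also the only 1 of the 5 with the same order of MPA arrays as RASD1, with MPA 3 highest and MPA 2 lowest. Relative to its control mean, RASD1 stood at 4.94, 4.61 and 5.21 on MPA 1, 2 and 3, and CST2 at 5.04, 4.78 and 5.50. On the control arrays the orders of these 2 genes differed. The distance mostly ranks genes by the size of their increase, and the arrays are the same ones that chose RASD1.

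**Figure D4:**
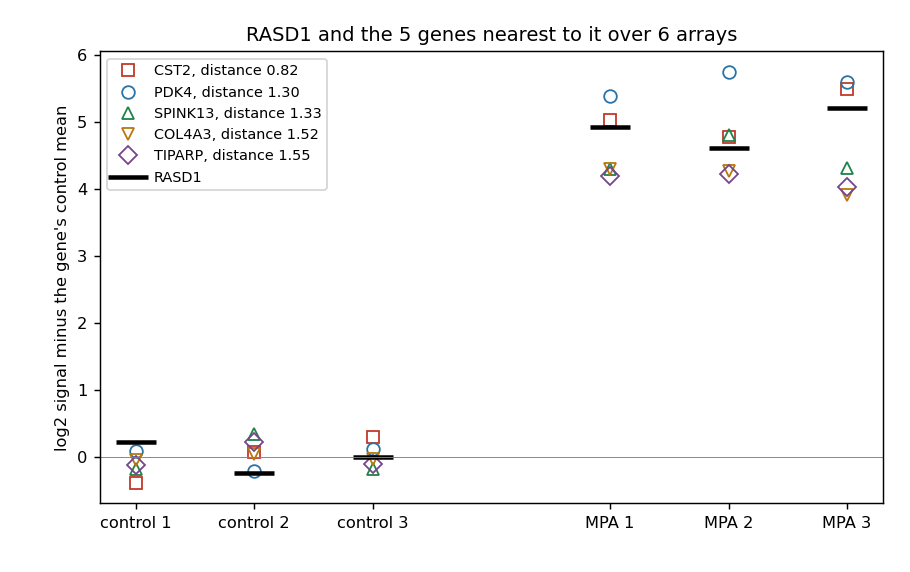
log2 signal of RASD1 (black bars) and of the 5 genes nearest to it, each relative to its own control mean, on the 6 arrays. All 6 genes lie between -0.38 and 0.35 on control arrays and between 3.92 and 5.75 on MPA arrays.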

How the data were processed

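Expression was measured in 3 control and 3 MPA arrays. The authors deposited log2 signals made with RMA (background correction, normalization between arrays, summary per probe set) from Affymetrix U133 Plus arrays, with an RMA software version not given in the sources used here. RMA was not repeated. Of 54675 probe sets, 62 Affymetrix controls were left out. Gene names came from the annotation of the platform after an update by Entrez identifier: 41091 had 1 symbol, 1801 several and 11721 none, and only the first were named. For genes outside the members, the brightest probe set was taken.

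The comparison over 54613 probe sets used limma 3.58.1 under R 4.3.3 (two-sided, no covariate). An exact permutation test of 3 against 3 arrays cannot go below 0.1. The steps were tested on simulated data. The members, gene lists and rules were chosen with earlier results of these data known. Named were all members, up to 4 called genes per direction of each list, REM2, DIRAS1, DIRAS2, HRAS, NOS1AP, the CACNB genes, and the 5 genes nearest to RASD1. SOS2, RRAS, NKIRAS1 and the GNAI genes were named after their values were seen. SAM was written from its description (all 20 relabelings, delta 0.58, constant at the 55th percentile of the spread, estimated false discovery rate 4.86%). Correlations between arrays of a group were 0.987 to 0.997. The other alternatives were the replicate number as a block, an intensity trend, other fold minimums, a second quantile normalization, scaling by 7 housekeeping genes, removal of dim probe sets, leaving out each array, and the mean of a gene's probe sets. Motifs were counted in the RefSeq promoter table.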

Additional observations from a re-analysis of the deposited data

How the results depend on the processing

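RASD1 was called under all 14 alternatives run on the member probe sets, with a log2 fold change of 4.77 to 5.07, and RERG 227758_at under 12 of them. The 2 exceptions for RERG were the minimum of 2-fold, which it does not reach, and the filter on dim probe sets, which removed it. The number of member probe sets called was 4 with SAM and 4 with the replicate block, the added ones being RRAD 204802_at and 204803_s_at, and 1 with the minimum of 2-fold and 1 of 6 tested without dim probe sets. Leaving out each array in turn gave 2 each time. The number of list genes called was 6 with the replicate block, 5 with SAM and 1 with the minimum of 2-fold, and 1 to 4 when each array was left out. Averaging the probe sets of each gene gave 2, DIRAS2 and SIPA1L2. Of all those tested, the replicate block called 1208 higher and 825 lower, SAM 1208 and 783, and the minimum of 2-fold 357 and 153, where the reported fit called 663 and 444. Leaving out each array gave 353 to 725 higher and 156 to 465 lower, with the smaller counts when control 1, control 3, MPA 1 or MPA 2 was removed. Deviations of same-numbered arrays from their group means correlated at -0.02 to 0.52, and those of differently numbered arrays at -0.48 to 0.35. The replicate numbers were not taken to pair the arrays, because this correlation was -0.02 for control 1 and MPA 1. Only 3 of 6 arrays correlated best with their own number. A shared effect of the number is not excluded by this. With that block NOS1AP was called lower (adjusted p = 0.0494) and RRAS and SOS2 higher. No member reversed a call under any alternative. The block, SAM, the trend, the fold minimums and the dim filter left the log2 fold change of RASD1 at 4.92. RASD1 was chosen by its rise on these same arrays, so its calls here are no independent evidence. The low signal of RERG, under the array medians, and of RRAD, under them in all values but 1, limits what their folds say, and the number of arrays limits the precision.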

Other observations

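The nearest measured protein-coding genes on either side of each member were read from the order of RefSeq genes, a look chosen after the data had been seen. Of the 20 neighbours, 2 were called, both higher, where 2.90% of all genes were called. PEMT, which encodes an enzyme of phosphatidylcholine synthesis and neighbours RASD1, had mean log2 signals of 9.52 in control and 10.35 in MPA cells (log2 fold change 0.83, adjusted p = 0.0278 from limma). CDH16, a cadherin gene next to RRAD, had means of 8.93 and 9.99 (log2 fold change 1.06, adjusted p = 0.0196 from limma). The other neighbour of RASD1, MED9, was at 0.12 and that of RRAD, CIAO2B, at 0.42, both not called. The neighbours of RERG, PDE6H and PTPRO, had log2 fold changes of -0.12 and -0.88 (adjusted p = 0.823 and 0.164).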
